A study of Homo sapiens with 4 samples.

Results

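DUT and 8 other genes of deoxynucleotide supply and clearance were followed in HEK293T, an established line derived from human embryonic kidney and expressing SV40 large T antigen. The 9 genes are DUT, RRM1, RRM2, RRM2B, TYMS, TK1, DTYMK, DCTPP1 and SAMHD1. They were taken by symbol from 69222 gene identifiers, and all 9 had enough counts to be tested. Poly(A) RNA was sequenced from 2 samples transduced with a lentiviral short hairpin RNA against RPRD1B (shRPRD1B) and from 2 samples transduced with a control hairpin (shCtrl). RPRD1B binds the phosphorylated C-terminal domain of RNA polymerase II. All samples share the cell line, the lentiviral delivery and the RNA kit, and the labels give neither the hairpin sequences nor the time after transduction. The set was chosen by function around DUT with the CPM values of shRPRD1B against shCtrl already known, so the values of the 9 genes in shRPRD1B against shCtrl are given as a description.

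Cells make deoxynucleotides by reducing ribonucleotides, a step carried out by ribonucleotide reductase, and by salvage of nucleosides. The pool rises in S phase, when several of the genes are transcribed under E2F control, and it is trimmed by enzymes that hydrolyse deoxynucleoside triphosphates. dUTP is a normal intermediate that DNA polymerases can use in place of dTTP. DUT, the dUTPase, converts it to dUMP, which keeps uracil out of DNA and at the same time supplies the substrate of thymidylate synthase.

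Total counts were 65572391 and 54722140 in the shRPRD1B libraries and 47732913 and 48494258 in the shCtrl libraries. Values below are CPM, counts per 1000000 reads with TMM-scaled library sizes, and each member rested on between 1654 and 17850 reads in a library. RPRD1B stood at 27.2 and 35.5 CPM in shRPRD1B, against 50.4 and 50.1 CPM in shCtrl (log2 fold change -0.68 ± 0.16, SE; edgeR adjusted p = 0.448). The direction was that of the labels. All 6 genes listed as markers of HEK293 cells were detected, 5 of them with a negative log2 fold change. VIM, NEFL and NEFM were between 71.2 and 212 CPM in every library, KRT18 between 48.4 and 58.7 CPM and PAX2 between 5.82 and 11.4 CPM. KRT8 had 22.9 and 6.46 CPM in shRPRD1B, against 27.1 and 24.9 CPM in shCtrl, and the part of such marker differences in the results was not tested. Of 9 markers of other cell types, 6 had too few counts to be tested, PTPRC of leukocytes and CDH5 of endothelium among them with at most 3 counts in a library. COL1A1 and EPCAM each had a log2 fold change of -0.61. Whether the replicates are separate cultures is not stated in the labels, so the SEs cover the spread among these 4 libraries alone, and that spread may be technical.

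DUT fell in shRPRD1B to 0.403 times its shCtrl level. DUT (ENSG00000128951.14) lies on the plus strand of chromosome 15, from 48331011 to 48343373 in GRCh38. It had 47.8 and 48.2 CPM in shRPRD1B, against 122 and 116 CPM in shCtrl. The 2 shRPRD1B libraries were almost equal and lay far below both shCtrl libraries. The group means were 48.0 ± 0.297 CPM and 119 ± 4.48 CPM (SD, n = 2 each), and the log2 fold change was -1.31 ± 0.11 (SE, 95% interval from -1.59 to -1.04). Among 10679 protein-coding genes of at least 5 CPM it was the 10th lowest fold change. Among all 20319 genes tested, which include genes of lower CPM, it was the 267th lowest. In bulk RNA, fewer cells that carry a transcript and less of it per cell cannot be told apart.

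**Figure D1:**
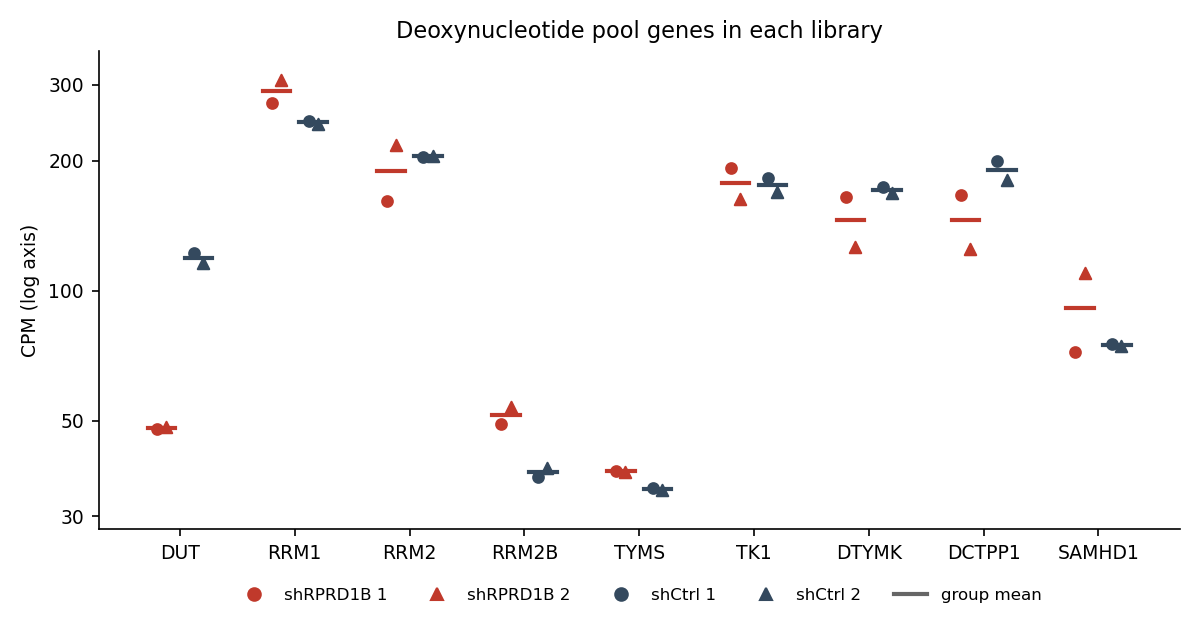
CPM on a log axis of the 9 genes in each library, with circles for replicate 1, triangles for replicate 2 and bars for group means. DUT is the gene with the widest gap between the groups (48.0 against 119 CPM in the means), and SAMHD1, RRM2, DTYMK and DCTPP1 spread most within shRPRD1B.

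DUT gives rise to a nuclear and a mitochondrial protein whose messages differ at their 5′ ends, and the counts per gene add both up. The RefSeq promoter table (GRCh38.p14, 250 bases before to 50 bases after a start) holds 4 starts for DUT. E2F-type words were searched as TTTGGCGC, TTTCGCGC and TTTCCCGC on both strands. They occur in 2.74% of 35116 promoters in the table, or at 3.30% of its genes. Among the 8 members with an entry, they were found at DUT and TYMS. The stretches are shown because they set DUT beside the other member with such a word, with the words in capitals and 12 bases on each side:
DUT, chr15:48332143-48332189, plus strand: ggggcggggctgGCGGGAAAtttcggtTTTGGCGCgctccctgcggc
TYMS, chr18:657602-657633, plus strand: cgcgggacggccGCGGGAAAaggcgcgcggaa
The DUT words belong to the most downstream of the 4 starts, at 48332197, and the windows of the other 3 starts held no word. Of the 2 genes that hold a word, DUT was at 0.403 times and TYMS at 1.10 times the shCtrl mean. The CCAAT box, searched as CCAAT on both strands, was present at RRM1, RRM2, TK1, DTYMK and SAMHD1, and in 34.6% of all promoters in the table, or at 39.7% of its genes. A match of letters is a description and not a binding site.

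DUT has near-identical copies elsewhere in the genome. The 8 DUT pseudogenes in the files summed to 11 and 30 counts in shRPRD1B and to 9 and 22 counts in shCtrl, at most 1.13% of the DUT count in a library. The treatment of multi-mapped reads is not given in the sources used here, so reads of DUT that also match a pseudogene may be missing from the count. The antisense gene DUT-AS1, which overlaps the 5′ end of DUT on the other strand, had 2.24 and 2.19 CPM in shRPRD1B and 2.03 and 1.83 CPM in shCtrl.

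The subunits of ribonucleotide reductase had log2 fold changes between -0.11 and 0.44, far from that of DUT. The enzyme pairs the large catalytic subunit RRM1 with a small subunit that carries the radical. That small subunit is RRM2 in S phase and RRM2B, a p53 target, outside it. RRM1 (ENSG00000167325.15, chr11:4094707-4138876) had 272 and 307 CPM in shRPRD1B, against 248 and 244 CPM in shCtrl (log2 fold change 0.24 ± 0.12). RRM2 (ENSG00000171848.16, chr2:10120698-10131419) had 162 and 217 CPM in shRPRD1B, against 205 and 206 CPM in shCtrl (-0.11 ± 0.16). The shCtrl values of RRM2 lay between the 2 shRPRD1B values, while both RRM1 values in shRPRD1B were above both in shCtrl.

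RRM2B (ENSG00000048392.13, chr8:102204502-102239118) had the largest positive fold change of the 9 genes. Its level was 49.2 and 53.7 CPM in shRPRD1B, against 37.1 and 38.9 CPM in shCtrl, without overlap of the groups. The means were 51.4 ± 3.22 CPM in shRPRD1B and 38.0 ± 1.28 CPM in shCtrl (SD, n = 2 each). The log2 fold change was 0.44 ± 0.12 (SE, 95% interval from 0.14 to 0.73), the 314th highest among those 10679 protein-coding genes. Among all 20319 genes tested, RRM2B had rank 18362 counted from the lowest. Per length of exon, the ratio of RRM2B to RRM2 within a library was 0.292 and 0.237 in shRPRD1B and 0.174 and 0.181 in shCtrl. The ratio of RRM2 to RRM1 was 0.466 and 0.555 in shRPRD1B and 0.647 and 0.662 in shCtrl. Both ratios kept the groups apart.

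The 3 genes of the thymidylate branch had log2 fold changes between -0.24 and 0.14. TYMS (ENSG00000176890.16, chr18:657604-673578), thymidylate synthase, methylates the dUMP that DUT produces. It had 38.2 and 38.0 CPM in shRPRD1B, against 34.9 and 34.5 CPM in shCtrl (log2 fold change 0.14 ± 0.11). The groups did not overlap, and TYMS in shRPRD1B was at 1.10 times its shCtrl mean. The 3′ end of TYMS overlaps ENOSF1 on the opposite strand. ENOSF1 had 35.1 and 38.4 CPM in shRPRD1B and 33.7 and 32.9 CPM in shCtrl, and the strand setting of the counting is not given in the sources used here, so TYMS is uncertain to that extent.

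TK1 (ENSG00000167900.12, chr17:78174075-78187233), the cytosolic thymidine kinase of S phase, had 193 and 163 CPM in shRPRD1B, against 182 and 169 CPM in shCtrl (0.02 ± 0.13), with overlapping groups. DTYMK (ENSG00000168393.13, chr2:241675742-241686991), the kinase that turns dTMP into dTDP, had 165 and 126 CPM in shRPRD1B, against 174 and 169 CPM in shCtrl (-0.24 ± 0.16). Both DTYMK values in shRPRD1B were below both in shCtrl, the first of them only slightly. Per length of exon, DUT was 0.840 and 0.853 times TYMS in shRPRD1B and 2.36 and 2.26 times TYMS in shCtrl. By this length the order of these 2 genes was turned round between the groups, and the gap in shRPRD1B depends on the length used.

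The other clearance enzymes lay on opposite sides of no change. DCTPP1 (ENSG00000179958.10, chr16:30423619-30430075), a pyrophosphatase that hydrolyses dCTP and modified cytidine nucleotides, had 166 and 125 CPM in shRPRD1B, against 199 and 181 CPM in shCtrl. Its log2 fold change was -0.38 ± 0.16 (SE, 95% interval from -0.79 to 0.03). DCTPP1 had the second lowest fold change of the 9 genes after DUT. It lies wholly inside ZNF771 on the opposite strand, which had 84.6 and 74.8 CPM in shRPRD1B and 91.0 and 84.4 CPM in shCtrl, so DCTPP1 carries the same doubt about strand as TYMS. SAMHD1 (ENSG00000101347.11, chr20:36889773-36951901), the triphosphohydrolase that splits deoxynucleoside triphosphates and restricts retroviruses in resting cells, had 72.1 and 110 CPM in shRPRD1B, against 75.1 and 74.4 CPM in shCtrl (0.28 ± 0.21). Here the 2 shRPRD1B libraries lay on either side of the shCtrl libraries. The fold change of SAMHD1 was 0.56 without shRPRD1B 1 and -0.05 without shRPRD1B 2, and that of RRM2 was 0.09 and -0.34. Without the same libraries in turn, DCTPP1 had -0.60 and -0.19, DTYMK -0.44 and -0.05, RRM1 0.32 and 0.15, and TK1 -0.11 and 0.14.

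Of the 9 genes, 1 passed the threshold of 0.05 on the Benjamini-Hochberg adjusted p of edgeR's quasi-likelihood test over 20319 genes, beside 0.0689% of all genes tested. That gene was DUT, and nothing is read from the count because DUT was in the set for this contrast. DUT no longer passed without shCtrl 1, without shCtrl 2, under a stricter filter on low CPM, or with limma voom. Without shRPRD1B 1, 6 members passed beside 29.1% of 21448 genes, and without shRPRD1B 2, 3 members passed beside 10.4% of 21458 genes. In those fits the lone shRPRD1B library is assumed to vary like shCtrl. DESeq2 called DUT alone of the 9, beside 0.62% of all genes called higher and 0.561% called lower. The groups did not overlap for 6 members, beside 40.9% of all genes. shRPRD1B was wholly above shCtrl for RRM1, RRM2B and TYMS, beside 20.3% of all genes, and wholly below it for DUT, DTYMK and DCTPP1, beside 20.6%. Fold changes were positive for 5 members, beside 50.5% of all genes. The median log2 fold change was 0.02 over the 9 members and 0.00 over all genes tested.

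**Figure D2:**
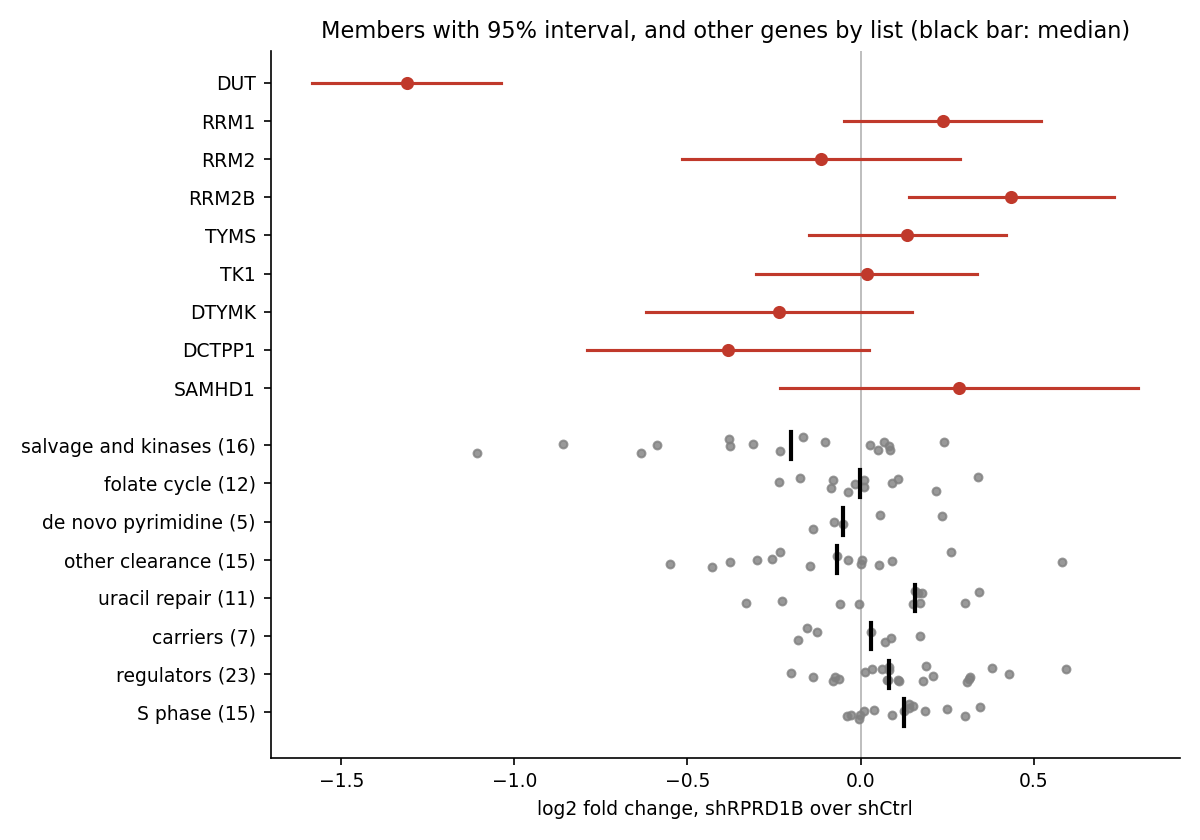
Log2 fold change of shRPRD1B over shCtrl for the 9 genes (red, with the 95% interval of the fit) and for every tested gene of 8 other lists (grey points, a black bar for the median, the number of genes in brackets). DUT lies at -1.31, and the medians of the other lists lie between -0.20 and 0.16.

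Levels between genes were compared as CPM per kilobase of exon, the union of all exons in GENCODE 29. In shRPRD1B, TK1 and DCTPP1 were highest (95.7 ± 11.4 and 92.2 ± 18.5 CPM per kb, SD, n = 2) and overlapped. RRM1 and DTYMK followed at 69.4 ± 5.90 and 59.4 ± 11.3 CPM per kb and also overlapped. RRM2 came next at 35.6 ± 7.37 CPM per kb, then TYMS at 15.4 ± 0.0596 and DUT at 13.1 ± 0.0810 CPM per kb. RRM2B and SAMHD1 were lowest at 9.27 ± 0.580 and 8.09 ± 2.39 CPM per kb and overlapped.

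In shCtrl no neighbours in the order overlapped, from DCTPP1 at 120.2 ± 8.34 CPM per kb and TK1 at 94.5 ± 4.90 CPM per kb to SAMHD1 at 6.64 ± 0.0430 CPM per kb. DUT stood sixth there with 32.4 ± 1.22 CPM per kb, next to RRM2 at 38.5 ± 0.167 CPM per kb and above TYMS at 14.1 ± 0.113 CPM per kb. In shRPRD1B it was seventh, below TYMS. With the length of 1 transcript per gene in place of the exon union, DUT stayed sixth in shCtrl and seventh in shRPRD1B. DTYMK moved to the second place and SAMHD1 above RRM2B in both groups. By that length DUT and TYMS were nearly equal in shRPRD1B, at 22.4 and 22.9 CPM per kb. In shCtrl they were at 55.5 and 20.9 CPM per kb.

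The members differed in how closely the 2 shRPRD1B libraries matched. SAMHD1 and RRM2 were higher in shRPRD1B 2 by 0.61 and 0.43 on the log2 scale, and RRM1 and RRM2B by 0.17 and 0.13. DCTPP1, DTYMK and TK1 were lower in shRPRD1B 2, with log2 ratios of -0.41, -0.39 and -0.24. DUT and TYMS differed by 0.01 and -0.01. Between the shCtrl libraries the ratios of all 9 members lay between -0.14 and 0.07.

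Base composition moved with these differences. The 4 members that were higher in shRPRD1B 2 have transcripts of 36.4% to 46.0% GC, and the 3 that were lower have 55.6% to 61.6% GC. DUT has 44.2% GC and TYMS 49.8% GC. Across the 10769 genes of at least 5 CPM with a GC value, the log2 ratio of shRPRD1B 2 over shRPRD1B 1 had a Spearman correlation of -0.44 with GC content and 0.43 with transcript length. In shCtrl the same correlations were -0.33 and 0.39. The genes of a group come from the same 2 libraries, and the correlations are a description. The median ratio in shRPRD1B was 0.17 in the quartile of genes with the lowest GC content and -0.26 in the quartile with the highest, while the medians of shCtrl were 0.04 and -0.05.

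**Figure D3:**
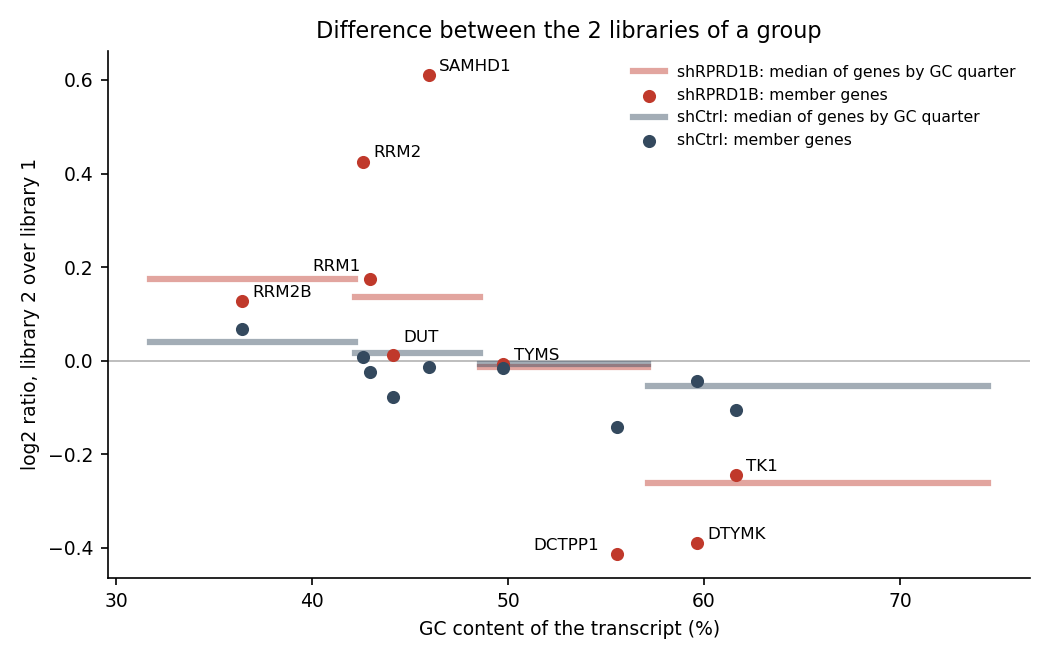
Log2 ratio of library 2 over library 1 within each group for the 9 genes (points, red for shRPRD1B and dark blue for shCtrl) against the GC content of the transcript, with the median of all genes of at least 5 CPM with a GC value in each quartile of GC content (horizontal bars). The shRPRD1B points run from 0.61 for SAMHD1 to -0.41 for DCTPP1, with DUT at 0.01.

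With library-specific offsets for the length and GC content of transcripts, a setting chosen after seeing the data, the fold change of DUT was -1.29. DCTPP1 then had -0.27, DTYMK -0.10, RRM2B 0.38, RRM1 0.21, SAMHD1 0.19 and RRM2 -0.16. TYMS and TK1 had 0.19 and 0.13. All 9 kept the direction they had without the offsets.

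No other member had a profile close to that of DUT. Over the 4 libraries, the log2 CPM of each gene was centred on its mean, and genes were ranked by their Euclidean distance from DUT among 10678 protein-coding genes of at least 5 CPM. DCTPP1 was the nearest member at rank 455, DTYMK followed at rank 1219, and RRM2B was last at rank 10314.

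The 5 nearest genes were ANXA5, PBK, POLR1F, HNRNPA0 and ABT1, with distances between 0.0666 and 0.279. ANXA5, a calcium-dependent phospholipid-binding protein, had 89.1 and 87.4 CPM in shRPRD1B, against 214 and 211 CPM in shCtrl. PBK, a mitotic kinase, had 26.7 and 25.96 CPM in shRPRD1B, against 55.3 and 59.2 CPM in shCtrl. POLR1F, a subunit of RNA polymerase I, had 34.7 and 39.9 CPM in shRPRD1B, against 81.3 and 78.1 CPM in shCtrl. HNRNPA0, an RNA-binding protein, was at 0.481 times its shCtrl mean, and ABT1, a nuclear protein that binds basal transcription factors, at 0.482 times. Such genes were ranked on the contrast itself, so their similarity to DUT is how they were found.

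**Figure D4:**
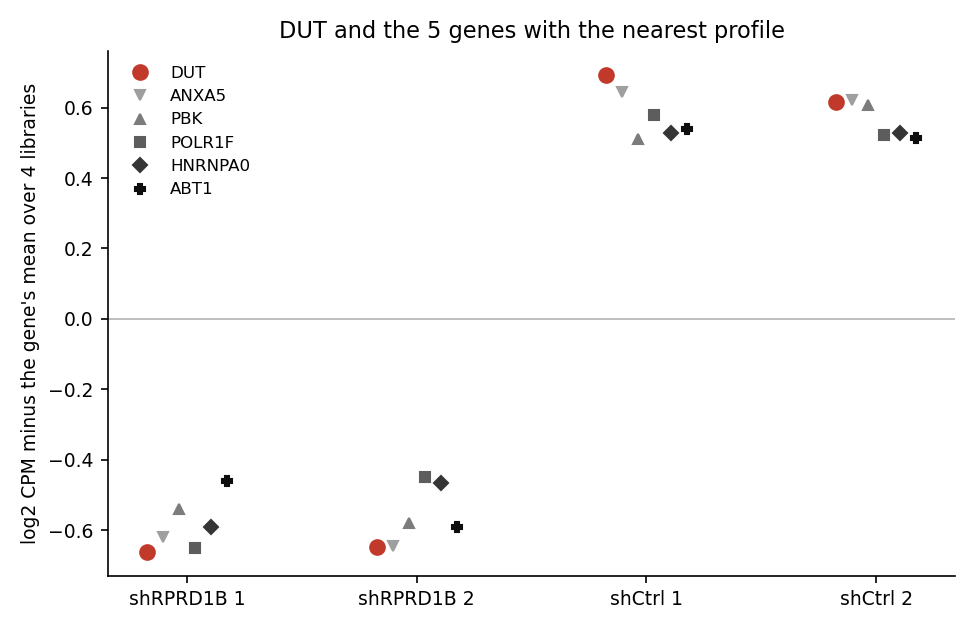
Log2 CPM minus the gene's mean over the 4 libraries, for DUT (red) and the 5 genes nearest to it (grey to black symbols), in shRPRD1B 1 and 2 and in shCtrl 1 and 2. All 6 genes lie below 0 in both shRPRD1B libraries and above 0 in both shCtrl libraries.

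A 6-base word, ACTAGC, had been found in earlier work on these fold changes to be frequent in the 3′ UTRs of lower transcripts, so its presence here supports nothing by itself. It occurs in the 3′ UTR of DUT, RRM2 and SAMHD1, 3 of the 9 members, and of 14.5% of 13938 tested genes with an annotated 3′ UTR (GENCODE 29, 1 transcript per gene). All 5 genes nearest to DUT contain it. Their median 3′ UTR length was 2099 bases, against 1100.5 bases over the 13938 genes. ANXA5 and PBK, with 513 and 685 bases, lay below 1100.5 bases, and HNRNPA0 had 7498 bases. The part of 3′ UTR length was not tested. The sites of the members and the first sites of 2 of the nearest genes are shown to set their flanks side by side. The 2 are ANXA5 and ABT1, whose flanks resemble each other next to the word. The sites of POLR1F and HNRNPA0 have other flanks, so a longer shared word is not read from the 2. The word is in capitals, with 12 bases on each side:
DUT, chr15:48342182-48342187, plus strand: ttctgtaaacttACTAGCtttaccttctaa
RRM2, chr2:10129463-10129468, plus strand: gaagtgttaccaACTAGCcacaccatgaat
SAMHD1, chr20:36891850-36891855, minus strand: ttaagagcaaacACTAGCcaggcgtggcgg
ANXA5, chr4:121668353-121668358, minus strand: tgccttattcatACTAGCatgctcatgacc
ABT1, chr6:26598857-26598862, plus strand: tcatactgtcatACTAGCataattatgact
In DUT the word starts at base 104 of a 3′ UTR of 1295 bases. In RRM2 it starts at base 77 of 2032, and in SAMHD1 at base 1077 of 3159. The 3 members that hold it had log2 fold changes of -1.31, -0.11 and 0.28. Of 66 other pathway genes, 8 of the 10 with the word had negative values (median -0.14), and 27 of the 56 without it (median 0.00). The word was picked on these same fold changes, so this split repeats that choice and nothing is read from it.

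The remaining genes of the pathway were taken as 6 lists of 69 genes in all, of which 66 had enough counts. edgeR's quasi-likelihood test called 0 of them higher and 0 lower at an adjusted p of 0.05, beside 0.0295% and 0.0394% of all genes. Before adjustment, p was under 0.05 for 2 higher and 6 lower genes, beside 3.55% and 3.94% of all genes, and DESeq2 called 1, AK4, lower. Their median log2 fold change was -0.03, with 31 positive and 35 negative values, beside 10257 and 10062 over all genes tested. The untested genes were the concentrative nucleoside transporters SLC28A1, SLC28A2 and SLC28A3, with at most 3 counts in a library. Without shRPRD1B 1, edgeR called 11 of the 66 higher and 22 lower, beside 14.6% and 14.4% of all genes. Without shRPRD1B 2 it called 6 higher and 9 lower, beside 5.91% and 4.47% of all genes.

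Salvage enzymes and nucleotide kinases had negative values for 10 of 16 genes, with a median of -0.20. Over all 20319 genes tested, 10062 values were negative. AK4, a mitochondrial adenylate kinase, had 54.5 and 49.4 CPM in shRPRD1B, against 78.8 and 77.5 CPM in shCtrl (-0.59 ± 0.12, edgeR adjusted p = 0.353). CDA, cytidine deaminase, had 1.57 and 1.08 CPM in shRPRD1B, against 3.15 and 2.63 CPM in shCtrl. NME3, a nucleoside diphosphate kinase, had 135 and 80.6 CPM in shRPRD1B, against 177 and 158 CPM in shCtrl.

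The folate cycle, which supplies the methyl donor of thymidylate synthase, had a median of 0.00 over 12 genes. MTHFD1, a trifunctional folate enzyme, had 294 and 333 CPM in shRPRD1B, against 244 and 251 CPM in shCtrl (0.34 ± 0.12, edgeR adjusted p = 0.638). SHMT2, the mitochondrial serine hydroxymethyltransferase, gave -0.23 ± 0.16, and DHFR2 gave -0.17 ± 0.17. In the de novo pyrimidine list of 5 genes, CAD, which starts the pathway, had 231 and 254 CPM in shRPRD1B, against 204 and 209 CPM in shCtrl (0.23 ± 0.11). The median of these 5 was -0.05, with DHODH at -0.14 ± 0.14, CTPS2 at -0.08 ± 0.11 and CTPS1 at 0.06 ± 0.12.

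Other nucleotide clearance genes had a median of -0.07 over 15 genes, of which 9 were negative, beside 10062 of all 20319 genes tested. NT5C3A, a pyrimidine nucleotidase, had 21.9 and 24.3 CPM in shRPRD1B, against 32.7 and 35.03 CPM in shCtrl (-0.55 ± 0.13, edgeR adjusted p = 0.460). ITPA, which removes inosine triphosphates, gave -0.23 ± 0.13, and DPYD, which degrades pyrimidine bases, gave 0.58 ± 0.26. The 7 tested carriers had a median of 0.03 and ran from -0.18 to 0.17. SLC25A36, a mitochondrial pyrimidine nucleotide carrier, gave 0.17 ± 0.11 and SLC25A33, of the same role, 0.09 ± 0.12. The nucleoside transporter SLC29A2 gave -0.15 ± 0.16.

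Genes that repair uracil in DNA were listed because they act where dUTP has been used. Of 11 genes, 7 were positive, beside 50.5% of all genes, and the median was 0.16. UNG, the main uracil-DNA glycosylase, had 131 and 184 CPM in shRPRD1B, against 124 and 131 CPM in shCtrl (0.30 ± 0.18, edgeR adjusted p = 0.717). LIG1, a ligase that seals the repaired strand, had 90.9 and 89.1 CPM in shRPRD1B. In shCtrl it had 67.9 and 74.1 CPM (0.34 ± 0.11, edgeR adjusted p = 0.619). SMUG1, a second uracil glycosylase, gave -0.33 ± 0.13, and TDG, which removes thymine and uracil from mismatches with guanine, -0.23 ± 0.13. None of these 11 passed the adjusted threshold, beside 0.0689% of all genes.

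Regulators of the pool genes (E2F and p53 family factors, their partners, cell cycle kinases and proteins that turn over RRM2 and TK1) had a median of 0.08 over 23 tested genes. Of these, 18 were positive and 0 were called, beside 50.5% and 0.0689% of all genes. E2F1 and E2F4 gave 0.01 ± 0.11 and -0.06 ± 0.11, values named after they were seen. TP73, a p53 family factor, had 30.5 and 25.9 CPM in shRPRD1B, against 20.3 and 17.1 CPM in shCtrl (0.59 ± 0.16, edgeR adjusted p = 0.528). CDK2, RBL2 and TFDP1 gave 0.32 ± 0.12, 0.31 ± 0.12 and 0.31 ± 0.13. Among the 15 S phase genes the median was 0.13 and 0 were called, beside 0.0689% of all genes. Their values ran from -0.04 to 0.35. The 4 with the smallest p were the replication genes GINS1 (0.25 ± 0.11), POLA1 (0.30 ± 0.18) and CDC6 (0.19 ± 0.12) and the G1/S cyclin CCNE2 (0.35 ± 0.21). DUT, at -1.31, lay below the whole range of these 15 genes. Nothing is read from that, because DUT was in the set for this contrast.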

How the data were processed

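Unnormalized gene-level read counts were deposited for each of the 4 samples, made by the authors with Trim Galore, HISAT2 and featureCounts on hg38, per the submitters' processing notes. Versions, annotation release, strand setting and the handling of multi-mapped reads were not given in the sources used here. Of 69222 identifiers, 62686 matched a symbol, and those without one held at most 0.239% of a library's counts and stayed in the tests. The counts were tested with edgeR 4.0.16 (R 4.3.3): quasi-likelihood fit, robust estimation, TMM factors, filterByExpr with a minimum count of 10, group as the only term, and Benjamini-Hochberg adjustment over 20319 genes. SEs and 95% intervals come from that fit. For log2 CPM a prior count of 2 was added. Alternatives used DESeq2 1.42.0, limma 3.58.1 and mgcv 1.9.3. With 2 against 2, no exact permutation can give a two-sided p under 0.333. Libraries of 1 group differed beyond sampling noise, with a chi-square over its degrees of freedom of 101.3 in shRPRD1B and 8.80 in shCtrl. The depth of 47732913 to 65572391 reads covers counting error only.

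On simulated data, 200 genes of at least 5 CPM were changed between shRPRD1B and shCtrl among 19808 genes. The fit recovered 70% of changes of 1 on the log2 scale and 100% of changes of 2. Of its 195 calls, 170 were changed genes, so false calls took a larger share than the threshold of 0.05. The real libraries spread unequally, with a chi-square over its degrees of freedom of 101.3 in shRPRD1B and 8.80 in shCtrl. Whether the recovery carries over to them was not tested. The members and gene lists were chosen with earlier results of these data known. Named genes are the members, RPRD1B, every called gene and the 4 genes with the smallest p of each pathway list, and the 5 genes nearest to DUT. Some genes that this rule names are not reported here, and E2F1 and E2F4 were named outside it.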

Additional observations from a re-analysis of the deposited data

How the results depend on the processing

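DUT kept its direction under all 12 alternatives, with log2 fold changes from -1.35 to -1.27, both of which come from leaving out 1 shCtrl library. It missed the adjusted threshold without shCtrl 1, without shCtrl 2, with at least 5 CPM in 2 libraries and with limma voom. The members' median moved to 0.13 with length and GC offsets and ranged from -0.05 to 0.09 with 1 library left out. RRM1, RRM2B, TYMS, DTYMK and DCTPP1 kept their direction under all 12. RRM2 and SAMHD1 turned without 1 shRPRD1B library, and TK1 without shRPRD1B 1 or without shCtrl 2. The cause was not tested.

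RPRD1B passed with DESeq2 (-0.68, adjusted p = 0.0467) and ranged from -0.88 to -0.50 with 1 library left out. The other pathway genes had 0 calls higher under the 8 alternatives that keep every library, and 1 lower with DESeq2. With 1 library left out, calls higher ranged from 0 to 11 and calls lower from 0 to 22, the most without shRPRD1B 1 and 6 higher and 9 lower without shRPRD1B 2, where the lone shRPRD1B library is assumed to vary like shCtrl. Their median was -0.0587 with limma voom, -0.0600 with the replicate block and 0.00252 with length and GC offsets, and ranged from -0.0567 to -0.0101 with 1 library left out. Over all genes, 6 were called higher and 8 lower. The counts were 126 and 114 with DESeq2, 0 and 0 with limma voom, 0 and 0 with at least 5 CPM in 2 libraries, 23 and 17 when low counts were kept, and 85 and 56 with the replicate block. With 1 library left out they ranged from 12 to 3139 higher and from 36 to 3096 lower. Counts over all genes are not given for the length and GC offsets. Only 69.5% of the tested genes have a value, and the others stayed in that fit uncorrected.

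Samples share replicate numbers but nothing in the labels pairs them. The deviations of same-numbered libraries had a correlation of 0.15 across 11541 genes, and the replicate block called no member other than DUT. SHMT1 of the folate cycle differed by replicate number. It had 3.37 and 16.1 CPM in shRPRD1B 1 and 2, and 0.675 and 15.8 CPM in shCtrl 1 and 2. The ratio of library 2 over library 1 also correlated with GC content and length with the same signs in both groups. Whether same-numbered libraries were handled together was not tested.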
